A study of Mus musculus with 6 samples.

Results

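Janus kinases (JAKs) and signal transducers and activators of transcription (STATs) were followed at the level of their transcripts in natural killer (NK) cells that lack the RNA methyltransferase METTL3. The members were given as a list of 9 gene symbols, the JAK genes Jak1, Jak2, Jak3 and Tyk2 and the STAT genes Stat2, Stat3, Stat4, Stat5a and Stat5b. All 9 were found among the 14490 genes with deposited mRNA-seq values. The rule itself uses symbols and no measured value, although the list was drawn up with earlier results of these data known. NK cells were purified by flow cytometry from spleens of C57BL/6 mice, which per the study's methods were aged 6 to 10 weeks and received no treatment before this experiment as far as the labels state. Both groups carried loxP-flanked Mettl3 alleles. WT samples were from Mettl3fl/fl mice without Cre, and cKO samples from Ncr1Cre-Mettl3fl/fl mice, with 3 samples in each group. In cKO mice, Cre is expressed from the Ncr1 locus, which encodes NKp46, so that Mettl3 is deleted in cells once they express NKp46. The Cre allele was thus present in cKO mice only, and its effect and that of the deletion cannot be told apart. Whether a sample was 1 mouse or a pool was not given in the sources used here, so the p-values measure the spread between these samples, which may be partly technical.

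JAKs are tyrosine kinases bound to the inner part of cytokine receptors. When a cytokine brings the receptor chains together, the JAKs phosphorylate the receptor and the STATs docked there, and phosphorylated STATs pair, enter the nucleus and bind DNA. In NK cells, interleukin (IL)-15 acts through JAK1, JAK3 and STAT5, IL-12 through JAK2, TYK2 and STAT4, and type I interferon through JAK1, TYK2 and STAT2. METTL3 places N6-methyladenosine (m6A) on RNA. Neither m6A nor protein or phosphorylation was measured in these samples.

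Values are normalized counts, that is, reads per gene divided by the size factor of the sample. From 55965515 to 71464042 reads fell on the listed genes of a sample. Mettl3, the deleted gene, had 1303, 1258 and 1192 normalized counts in WT and 297, 299 and 405 in cKO. All 3 cKO samples were below WT, in keeping with their labels, and some Mettl3 RNA was left in each. The labelled cell type was checked against 10 NK cell markers, among them Ncr1, Klrb1c and Eomes, which were all detected in every sample, with a sum of 802103 to 829292 normalized counts in WT and 737682 to 779263 in cKO. Markers of other cells were present at far lower sums. In WT and cKO, 9 B-cell markers summed to 1372 to 1399 and 1875 to 1945 normalized counts, 8 T-cell markers to 4252 to 4641 and 4183 to 4461, 5 myeloid markers to 7004 to 7589 and 6910 to 7731, and 4 erythroid markers to 771 to 812 and 631 to 808. No marker was at 0 in any sample. The threshold was a limma adjusted p under 0.05, at which 17.8% of all listed genes were higher in cKO and 18.8% lower. Among genes with a mean at least that of Stat2, which include all 10 NK cell markers, 20.9% were higher and 35.8% lower. Of the 9 B-cell markers 7 were higher in cKO and none lower, and of the 8 T-cell markers 1 was higher and 2 were lower. The higher T-cell marker was Lef1, which made up most of the T-cell sum (mean 2503 normalized counts in WT and 2751 in cKO). Cd3e had means of 151 and 166, so the sum is mainly a reading of Lef1. Of the 5 myeloid markers 2 were higher and 1 was lower, and of the NK cell markers 1 was higher and 6 were lower. Of 5 markers of mature NK cells, Cx3cr1 (log2 fold change 0.54) and S1pr5 (0.49) were higher, Klrg1 (−0.55) was lower, and 2 did not pass. Of 7 markers of immature NK cells, Cxcr3 (0.81) and Il7r (0.52) were higher, Kit (−0.53) was lower, and 4 did not pass. The paper reports a lower frequency of the most mature NK cells in the cKO spleen. The part of these differences in the JAK and STAT values was not tested. In sorted cells measured in bulk, fewer cells of a kind and less RNA per cell cannot be told apart. For Ncr1, 1 of the lower NK cell markers (log2 fold change −0.40), an effect of the Cre allele at its own locus cannot be told apart from these either.

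The 9 genes lie on 7 chromosomes, and 3 of them form a cluster on chromosome 11 of GRCm38. There, Stat5b (100780731 to 100850724, minus strand), Stat5a (100859351 to 100885169, plus strand) and Stat3 (100885098 to 100939540, minus strand) follow each other. Stat5b and Stat5a stand head to head with 8626 bases between them, and Stat5a and Stat3 end tail to tail and share 72 exon bases on opposite strands. Whether reads were counted by strand was not given in the sources used here, so reads from those 72 bases cannot be assigned to Stat5a or Stat3. Jak1 lies on chromosome 4 (101152367 to 101265282, minus strand), Jak2 on chromosome 19 (29251828 to 29313080, plus strand), Jak3 on chromosome 8 (71676296 to 71690575, plus strand) and Tyk2 on chromosome 9 (21104068 to 21131243, minus strand). Stat2 lies on chromosome 10 (128270559 to 128292849, plus strand) and Stat4 on chromosome 1 (51987148 to 52107189, plus strand). All 9 are protein-coding genes in the GENCODE annotation.

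The promoters of the 6 members whose transcripts differed between the genotypes at a limma adjusted p under 0.05 are shown, so that the start regions of genes that fell and of genes that rose can be read side by side. Each sequence is the RefSeq window on GRCm38.p6 from 250 bases before to 50 bases after a start site, written 5′ to 3′ on the strand of the gene, and where RefSeq gives several starts, the window nearest to the start of the annotated transcript is used. Capitals mark 4 motifs searched on both strands, the STAT site TTCNNNGAA, the core of the interferon-stimulated response element (GAAA and, after any 2 bases, GAAA again), the Sp1 site GGGCGG and the CCAAT box CCAAT. A site on the strand opposite to the gene appears as its reverse complement.
Stat3, lower in cKO, chr11:100939491-100939790, minus strand: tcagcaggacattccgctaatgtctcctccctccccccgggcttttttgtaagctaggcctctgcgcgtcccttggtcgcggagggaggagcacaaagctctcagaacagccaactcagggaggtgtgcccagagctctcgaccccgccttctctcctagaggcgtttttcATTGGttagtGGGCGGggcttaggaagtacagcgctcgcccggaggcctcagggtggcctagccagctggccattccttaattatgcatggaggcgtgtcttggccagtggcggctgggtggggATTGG
Stat5a, lower in cKO, chr11:100859406-100859705, plus strand: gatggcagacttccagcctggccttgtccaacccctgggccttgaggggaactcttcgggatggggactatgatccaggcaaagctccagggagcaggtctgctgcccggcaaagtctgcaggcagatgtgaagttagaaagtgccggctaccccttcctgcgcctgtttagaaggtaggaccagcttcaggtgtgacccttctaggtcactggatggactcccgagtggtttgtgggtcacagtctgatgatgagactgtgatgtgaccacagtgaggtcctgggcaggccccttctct
Tyk2, lower in cKO, chr9:21131226-21131525, minus strand: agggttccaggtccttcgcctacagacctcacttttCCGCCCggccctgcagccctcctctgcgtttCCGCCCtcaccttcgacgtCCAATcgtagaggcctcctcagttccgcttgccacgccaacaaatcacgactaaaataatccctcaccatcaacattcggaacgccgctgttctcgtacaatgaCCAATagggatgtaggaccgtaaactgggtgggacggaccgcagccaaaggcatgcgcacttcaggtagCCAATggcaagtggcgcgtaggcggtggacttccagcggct
Jak1, higher in cKO, chr4:101265174-101265473, minus strand: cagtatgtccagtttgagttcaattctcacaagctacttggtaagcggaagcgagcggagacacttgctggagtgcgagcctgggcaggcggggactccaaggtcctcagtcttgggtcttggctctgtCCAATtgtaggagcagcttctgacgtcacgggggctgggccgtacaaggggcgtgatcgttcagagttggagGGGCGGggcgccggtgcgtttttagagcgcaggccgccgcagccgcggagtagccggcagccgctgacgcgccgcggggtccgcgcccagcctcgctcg
Jak2, higher in cKO, chr19:29251553-29251852, plus strand: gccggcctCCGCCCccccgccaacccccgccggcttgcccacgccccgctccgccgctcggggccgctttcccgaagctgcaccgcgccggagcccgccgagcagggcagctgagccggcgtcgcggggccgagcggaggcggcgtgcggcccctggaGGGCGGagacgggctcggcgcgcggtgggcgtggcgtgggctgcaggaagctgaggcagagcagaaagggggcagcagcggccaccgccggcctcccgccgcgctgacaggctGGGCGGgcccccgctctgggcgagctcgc
Stat2, higher in cKO, chr10:128270248-128270547, plus strand: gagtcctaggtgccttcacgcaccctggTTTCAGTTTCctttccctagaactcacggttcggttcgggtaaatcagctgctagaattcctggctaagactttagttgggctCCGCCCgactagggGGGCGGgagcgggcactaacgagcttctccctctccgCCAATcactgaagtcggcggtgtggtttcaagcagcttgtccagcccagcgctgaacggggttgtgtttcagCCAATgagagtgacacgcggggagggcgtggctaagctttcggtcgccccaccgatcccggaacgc

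None of these 6 windows, and none of those of Jak3, Stat4 and Stat5b, held TTCNNNGAA, the letters bound by STAT dimers, which 8.30% of all 32851 promoter windows held (0 of 9 members). The interferon-stimulated response element core was found in 3.44% of all windows and in 2 of the 9 members, Stat2 and Stat4. In the Stat2 window it lies on the strand opposite to the gene. GGGCGG was found in 35.7% of all windows and in 6 members, and CCAAT in 37.4% and in 4 members. Of the member windows used, that of Jak2 was the richest in G and C, at 81.0%, against a median of 52.7% over all windows. The Stat5a window used held none of the 4 motifs. Its start site lies 305 bases from that of the annotated transcript, farther than in the other members. Stat4, Stat5a and Stat5b each had another RefSeq window that was not used and that differed in motifs. That of Stat5a held GGGCGG 2 times (67.7% G and C) and that of Stat5b 3 times (82.7%). That of Stat4 held CCAAT 1 time but no interferon-stimulated response element core. These matches are descriptions of letters in a short window, not evidence of binding.

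Of the 9 members, 6 differed between cKO and WT at a limma adjusted p under 0.05, where 36.6% of all listed genes did. Jak1, Jak2 and Stat2 were higher in cKO, where 17.8% of all genes were, and Tyk2, Stat3 and Stat5a were lower, where 18.8% were. Jak3, Stat4 and Stat5b did not pass the threshold. The members are well expressed, and among the 3932 genes with a mean at least as high as that of Stat2, the lowest of the 9, 56.7% passed, 20.9% higher and 35.8% lower. Against those genes, 6 of 9 was near the background. The changes were small in size. All 9 of the 95% confidence intervals fell inside −0.5 to 0.5 on the log2 scale, and the median size of the log2 fold change was 0.12 among members, against 0.17 over all listed genes. By the fold limits used in the study, an unadjusted p under 0.05 with a log2 fold change beyond 1 in either direction, 0 members passed in limma and 0 in each count test, where 1.75% of all genes did in limma. Without the fold limit, 8 members had an unadjusted limma p under 0.05, where 44.2% of all genes did.

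**Figure D1:**
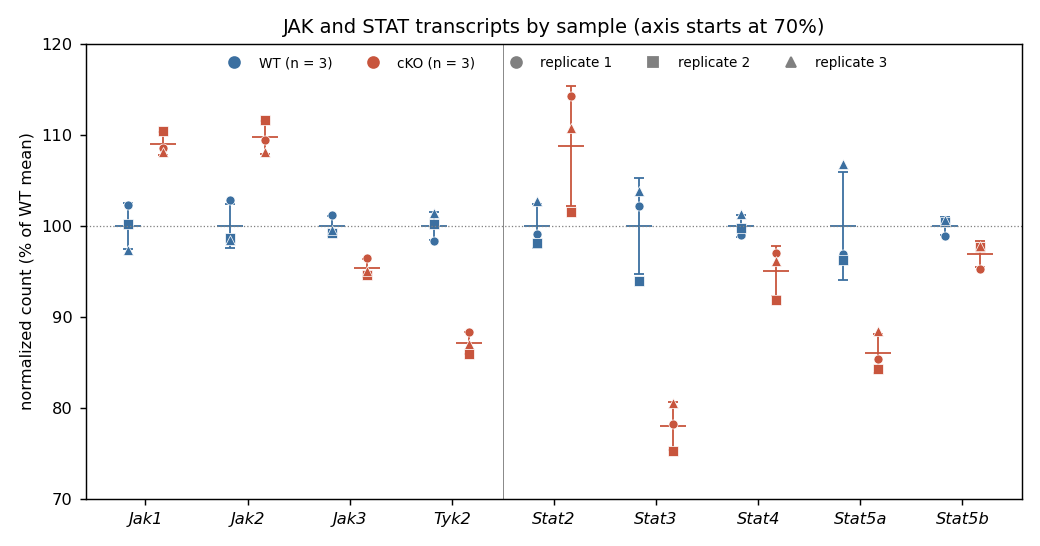
Normalized counts of the 9 JAK and STAT genes in each sample, as percent of the mean of the 3 WT samples (vertical axis, which starts at 70%). Blue is WT and red cKO, marker shapes give the replicate, horizontal bars the mean and vertical bars the SD (n = 3). Stat3 sits farthest from 100% in cKO, and Stat2 is the only gene whose WT and cKO points overlap.

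The JAK genes are described first. Jak1, whose product pairs with the IL-2Rβ chain, gp130 and interferon receptors, had 98132, 96122 and 93391 normalized counts in WT and 104088, 105897 and 103627 in cKO. Every cKO sample was above every WT sample. The mean rose from 95882 ± 2380 to 104537 ± 1200 (SD, n = 3 each), by 9.04% or a log2 fold change of 0.12 (SE 0.0294, limma adjusted p = 0.00136).
Jak2, whose product serves the IL-12Rβ2 chain and the interferon-γ receptor, had 8080, 7758 and 7743 normalized counts in WT and 8606, 8775 and 8496 in cKO. Again the groups did not overlap, and cKO was higher. The log2 fold change was 0.13 (SE 0.0343, limma adjusted p = 0.00288), a rise of 9.75%, with means of 7860 ± 191 and 8626 ± 140 (SD, n = 3 each).
Tyk2 encodes the kinase bound to IFNAR1 and to IL-12Rβ1. It had 23078, 23498 and 23800 normalized counts in WT against 20729, 20167 and 20405 in cKO, and thus lay lower in each cKO sample. Its mean fell from 23459 ± 362 to 20434 ± 282 (SD, n = 3 each), a log2 fold change of −0.20 (SE 0.0299, limma adjusted p = 6.60e-06) and a change of −12.9%.
Jak3, which binds the common γ chain (γc) of the receptors for IL-2, IL-7, IL-15 and IL-21, had 13635, 13366 and 13415 normalized counts in WT and 12996, 12742 and 12804 in cKO. The cKO samples lay below the WT samples without overlap, but the distance was short. The log2 fold change of −0.068 (95% confidence interval −0.13 to −0.0046) did not pass the threshold (SE 0.0311, limma adjusted p = 0.0879). Once values were corrected for GC content and length it was −0.094 and passed (limma adjusted p = 0.0168), whereas with samples scaled to equal totals it was −0.019 (limma adjusted p = 0.665).

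Among the STAT genes, Stat3 moved most. STAT3 is activated by IL-10 and IL-21, and by IL-6 and other cytokines that signal through gp130. Stat3 had 36064, 33176 and 36647 normalized counts in WT and 27614, 26584 and 28433 in cKO, and the lowest WT sample was above the highest cKO sample. The means were 35295 ± 1859 and 27544 ± 926 (SD, n = 3 each), and the log2 fold change was −0.36 (SE 0.0351, 95% confidence interval −0.43 to −0.28, limma adjusted p = 7.44e-09), a change of −21.9%.
Stat5a and Stat5b encode the related STAT5 proteins through which IL-15 and IL-2 act. Stat5a had 3976, 3949 and 4385 normalized counts in WT and 3504, 3456 and 3628 in cKO. All cKO samples were below WT, and WT sample 3 stood above the other WT samples. The log2 fold change was −0.22 (SE 0.0445, limma adjusted p = 0.000342), with means of 4103 ± 244 and 3529 ± 88.7 (SD, n = 3 each) and a change of −13.9%.
Stat5b had 7266, 7386 and 7400 normalized counts in WT and 7002, 7180 and 7191 in cKO. The highest cKO sample stood just below the lowest WT sample. The log2 fold change of −0.045 (95% confidence interval −0.12 to 0.025) did not pass the threshold (SE 0.0343, limma adjusted p = 0.330). With samples scaled to equal totals it was 0.0044.
Stat4 encodes the factor through which IL-12 raises interferon-γ. It had 6851, 6906 and 7013 normalized counts in WT and 6714, 6360 and 6656 in cKO, all cKO samples being below WT. The log2 fold change of −0.074 (95% confidence interval −0.15 to −0.00077) did not pass after adjustment (SE 0.0358, limma adjusted p = 0.109). With equal totals it was −0.025 (limma adjusted p = 0.637).
STAT2 belongs with IRF9 to ISGF3, the complex that acts after type I interferon. Stat2 had 2960, 2933 and 3069 normalized counts in WT and 3414, 3032 and 3308 in cKO, and cKO sample 2 fell within the WT range. The log2 fold change was 0.12 (SE 0.0469, limma adjusted p = 0.0451), a rise of 8.72%, and the exact permutation test gave p = 0.2 (two-sided). The call of Stat2 was lost with DESeq2 on the recovered reads, with the correction for GC content and length, and without WT sample 1, WT sample 2, cKO sample 1 or cKO sample 3. With 1 of those samples left out, the limma adjusted p lay between 0.103 and 0.249.

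In 8 of the 9 members the 3 cKO values and the 3 WT values did not overlap, where 45.7% of all genes did not, and 63.6% of the genes at least as abundant as Stat2. In 6 of these the cKO values were lower, and in Jak1 and Jak2 they were higher. This division rests on the size factors. With samples scaled to equal totals, an alternative added after the data were seen for this count, Jak3, Stat4 and Stat5b overlapped and Stat2 did not, so that 6 members did not overlap, 3 higher and 3 lower, where 47.3% of all genes did not. With equal totals, the share among genes at least as abundant as Stat2 was not computed. For each of the 8 on the deposited scale, the exact permutation test gave p = 0.1 (two-sided). With 3 samples a group it cannot go lower. The depth behind these values was ample. From 2465 reads in the shallowest case for Stat2 to 116533 in the deepest for Jak1 stood behind a single value, and the counting error alone would be at most 2.01% of it. The spread between samples of a group was 1.0% of the mean for Stat5b in WT and up to 6.06% for Stat2 in cKO.

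**Figure D2:**
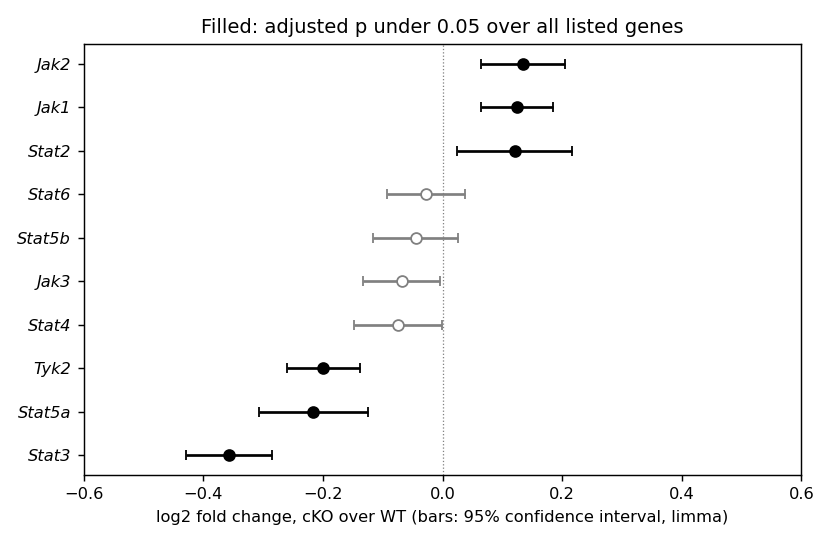
Log2 fold change of cKO over WT (horizontal axis) for the 9 members and for Stat6, with limma 95% confidence intervals as bars (n = 3 samples a group). Filled points have a limma adjusted p under 0.05 over all listed genes, and range from −0.36 for Stat3 to 0.13 for Jak2.

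Stat6, which encodes the factor that acts after IL-4, was read beside the members. Its log2 fold change was −0.028 (limma adjusted p = 0.544), and the groups overlapped.

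To compare levels between genes, normalized counts were divided by the summed length of all annotated exons in kilobases. In WT, Jak1 was the highest of the family at 13267 ± 329 normalized counts per kilobase (SD, n = 3), above 98.3% of the genes with a length, and Stat2 the lowest of the 9 at 504 ± 12.2, a span of 26.3-fold. Stat3 (3705 ± 195), Tyk2 (3417 ± 52.8), Jak3 (2517 ± 26.7), Stat4 (1788 ± 21.2), Jak2 (1563 ± 37.9), Stat5b (1327 ± 13.3) and Stat5a (575 ± 34.2) lay in between. Within WT, every neighbouring pair in this order was separated in all 3 samples, since the lowest value of the higher gene, such as 3482 for Stat3, exceeded the highest of the next, such as 3467 for Tyk2. Stat6 stood at 4293, between Jak1 and Stat3 by exon length, but below Stat3 when the length of the longest coding transcript was used. The median of all genes was 237, below each of the 9.

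**Figure D3:**
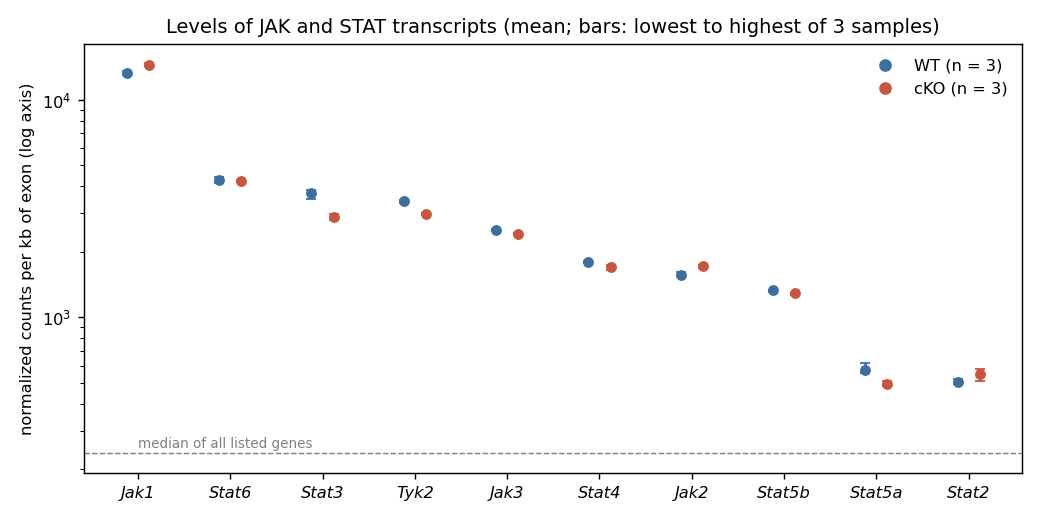
Mean normalized counts per kilobase of exon (vertical log axis) of the JAK and STAT genes in WT (blue) and cKO (red), with bars from the lowest to the highest of 3 samples and the median of all listed genes as a dashed line. Jak1 lies at 13267 in WT and 14465 in cKO, and the order of Stat3 and Tyk2, of Stat4 and Jak2, and of Stat5a and Stat2 differs between the groups on this scale but not per kilobase of the longest coding transcript.

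In cKO, 3 neighbouring pairs of members stood in the opposite order by exon length. By the length of the longest coding transcript no pair of members did, but Stat6 changed places with Stat3. Per kilobase of transcript, Stat3 was above Stat6 in WT (5842 against 5006) and below it in cKO (4559 against 4909). By exon length, Tyk2 was at 2977 ± 41.1 and Stat3 at 2891 ± 97.2 normalized counts per kilobase (SD, n = 3), and these ranges overlapped. Jak2 reached 1715 ± 27.9 against 1699 ± 49.1 for Stat4, which also overlapped. Stat2, at 549 ± 33.2, was above Stat5a, at 495 ± 12.4, on this scale, but per kilobase of transcript Stat2 was at 739 and Stat5a at 908, so that the order of these genes in cKO depends on the length used. Within the 4 JAK genes, per kilobase, Jak1 made up 63.9% ± 0.586 of the sum in WT and 67.1% ± 0.344 in cKO (SD, n = 3), and Tyk2 went from 16.5% ± 0.515 to 13.8% ± 0.249. Jak2 went from 7.53% to 7.95% and Jak3 from 12.1% to 11.1%. Within the sum of the 5 STAT members and Stat6, Stat3 made up 30.4% ± 0.681 in WT and 26.0% ± 0.584 in cKO, while Stat6 went from 35.2% to 37.8%. The shares of Stat2 were 4.14% and 4.93%, and those of Stat5a 4.72% and 4.45%. None of these share differences could reach a p under 0.1 in the exact permutation test, and Stat4 and Stat5b overlapped between groups (exact p = 0.2 each).

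Ratios of transcripts within a sample do not depend on the size factor, and 7 pairs were compared. The log2 ratio of Stat5a to Stat5b was −0.870, −0.903 and −0.755 in WT and −0.999, −1.05 and −0.987 in cKO. The ratio was thus lower in every cKO sample, by 0.17 on the log2 scale or −11.2%. The log2 ratio of Jak1 to Tyk2, the kinases that share the type I interferon receptor, was 2.09, 2.03 and 1.97 in WT and 2.33, 2.39 and 2.34 in cKO, a difference of 0.32 (25.2%). That of Jak1 to Jak3, which serve the IL-15 receptor together, rose in each cKO sample, by 0.19 (14.3%). The log2 ratio of Irf9 to Stat2 was 0.60, 0.53 and 0.49 in WT and 0.20, 0.42 and 0.18 in cKO, a difference of −0.27. Stat3 differed from its chromosome 11 neighbours too, by −0.31 against Stat5b and by −0.14 against Stat5a. For these 6 pairs the groups did not overlap, with an exact permutation p of 0.1, the lowest attainable, and a Benjamini-Hochberg adjusted value of 0.117 over the 7. Each of the 6 holds a gene that passed the threshold by itself. The share of gene pairs that do not overlap was not computed over all genes, so the count of 6 has no background. Of single genes, 45.7% did not overlap. The ratio of Stat4 to Stat5b overlapped between the groups, with a difference of −0.029 (exact permutation p = 0.6).

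**Figure D4:**
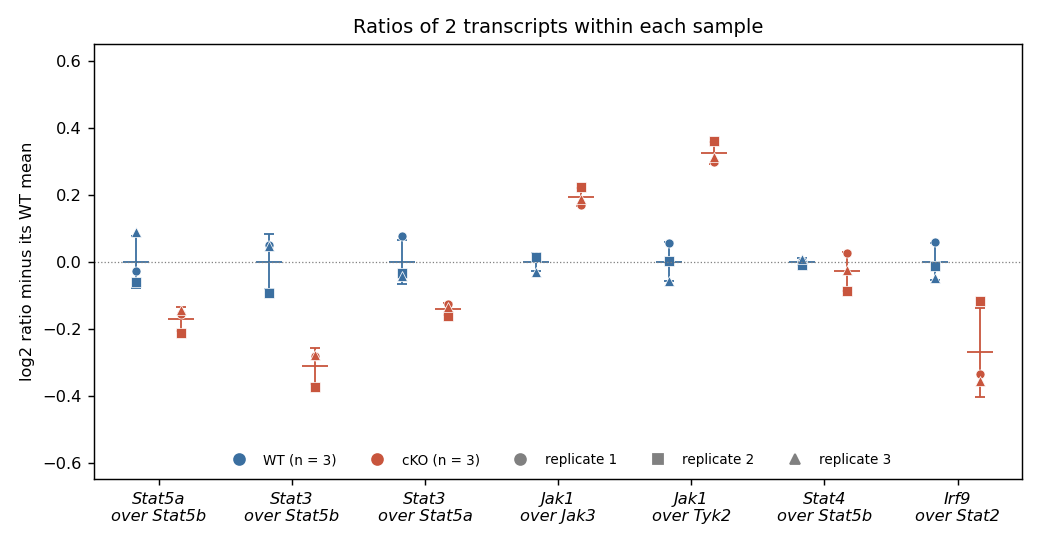
Log2 ratio of a pair of transcripts in each sample, minus the WT mean of that ratio (vertical axis), for 7 pairs. Blue is WT and red cKO, shapes give the replicate, horizontal bars the mean and vertical bars the SD (n = 3), and the cKO points of 6 pairs lie wholly to one side of WT, from −0.31 for Stat3 over Stat5b to 0.32 for Jak1 over Tyk2.

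Features that could bear on the measurement were read from the annotation. Stat5a and Stat5b are close relatives, and 175 windows of 150 bases are identical in their longest coding transcripts, which is 4.68% of the windows of Stat5a and 3.46% of those of Stat5b. No other pair of members shared such a window. Jak3 shares 404 exon bases on its strand with Insl3, whose 56.3 to 91.5 normalized counts were far below those of Jak3. Jak1 shares 4 exon bases with Raver2, which lies on the other strand and had 788 to 882 normalized counts. Tyk2 overlaps 1700084C06Rik, an antisense gene, over 554 exon bases, and Stat4 overlaps Gm28177 over 1033 on its own strand, and neither of those genes was among the deposited ones. The letters GGACT, a form of the site at which METTL3 methylates RNA, occurred in the longest coding transcript of all 9 members, as in 92.2% of the listed coding genes. Jak3 held 10 copies (2.49 per kilobase) and Stat3 held 3 (0.497 per kilobase), against a median of 1.05 per kilobase over those genes. These are letters in the transcript, and say nothing of whether a site is methylated.

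The other parts of the pathway were taken as lists and described by their counts beside the 36.6% of all genes that passed, 17.8% higher and 18.8% lower. Many genes of the lists are abundant. Among genes with a mean at least that of Stat2, 56.7% passed, 20.9% higher and 35.8% lower. The counts of the lists were not tested against either background. Of 19 cytokine receptor chains, 18 were listed, 2 were higher, 9 lower, and 7 did not pass, with a median log2 fold change of −0.11 against 0.0014 over all genes. For the IL-15 receptor, Il2rb, the chain bound by JAK1, was higher (log2 fold change 0.14, limma adjusted p = 0.000797). Il2rg, the γc chain bound by JAK3, was lower (−0.24, limma adjusted p = 8.47e-07), and Il15ra had −0.044 (limma adjusted p = 0.688). For type I interferon, Ifnar1, the chain bound by TYK2, had 19378, 17740 and 18682 normalized counts in WT and 13909, 13826 and 14580 in cKO. It lay lower in all cKO samples, and the log2 fold change was −0.40 (limma adjusted p = 7.40e-10), in the same direction as Tyk2. Ifnar2, the chain bound by JAK1, had −0.10 (limma adjusted p = 0.104). It ran from −0.14 without cKO sample 2 to −0.053 with equal totals, and passed in 4 of 18 alternatives. For IL-12, neither Il12rb1 (0.045, limma adjusted p = 0.547) nor Il12rb2 (0.030, limma adjusted p = 0.585) passed, and neither did Stat4. Il6st, which encodes the gp130 chain upstream of STAT3, fell with Stat3, by 0.63 on the log2 scale (limma adjusted p = 2.02e-07). Il2ra, the α chain of the IL-2 receptor, had the largest fall of the list (−0.73, limma adjusted p = 0.000151), and Il7r, the IL-7 receptor, the largest rise (0.52, limma adjusted p = 1.37e-06).

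Of 15 ligands, 8 were listed. Among them 3 were higher, 1 lower and 4 did not pass, with a median log2 fold change of 0.28. Lif (0.62, limma adjusted p = 0.00181) and Osm (0.54, limma adjusted p = 3.31e-11), both cytokines that signal through gp130, rose, and Il15 fell (−0.37, limma adjusted p = 0.00340). Of 19 inhibitors, 4 were higher, 9 lower and 6 did not pass, with a median of −0.081. The 9 lower genes include Ptpn11 (−0.12, limma adjusted p = 0.0122), which encodes SHP-2. The paper gives SHP-2 as a mediator of ERK activation by IL-15, so the list is not made of inhibitors alone. The SOCS genes, which encode proteins that block JAKs or their receptors, moved both ways. Socs2 (0.62), Socs1 (0.53) and Socs3 (0.33) rose, with limma adjusted p of 3.14e-07, 4.94e-11 and 1.98e-09, while Socs5 (−0.44) and Socs7 (−0.36) fell, with 4.94e-05 and 1.03e-08. Cish, which encodes CIS and is itself induced by STAT5, had 0.18 (limma adjusted p = 0.0705), and Ptpn6, which encodes the phosphatase SHP-1, had −0.081 (limma adjusted p = 0.0723). Over the 18 alternatives Cish ran from 0.12 without WT sample 2 to 0.24 without WT sample 3 and Ptpn6 from −0.099 without WT sample 3 to −0.031 with equal totals, and each passed in 2 of them. Of 7 partners and coactivators, 2 were higher and 2 lower. Sh2b1, an adaptor of JAK2, rose (0.21, limma adjusted p = 1.44e-05), as did Crebbp, a histone acetyltransferase recruited by STATs (0.12, limma adjusted p = 0.0194). Nmi, a STAT-binding protein, fell (−0.16, limma adjusted p = 0.00848), and so did Irf9, the DNA-binding part of ISGF3 (−0.15, limma adjusted p = 0.00582). The count for partners was 2 in place of 4 with the correction for GC content and length, and also without WT sample 2 or cKO sample 3, Crebbp and Nmi being the genes lost each time. With equal totals Nmi (limma adjusted p = 0.0579) and Irf9 (0.0515) did not pass.

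**Figure D5:**
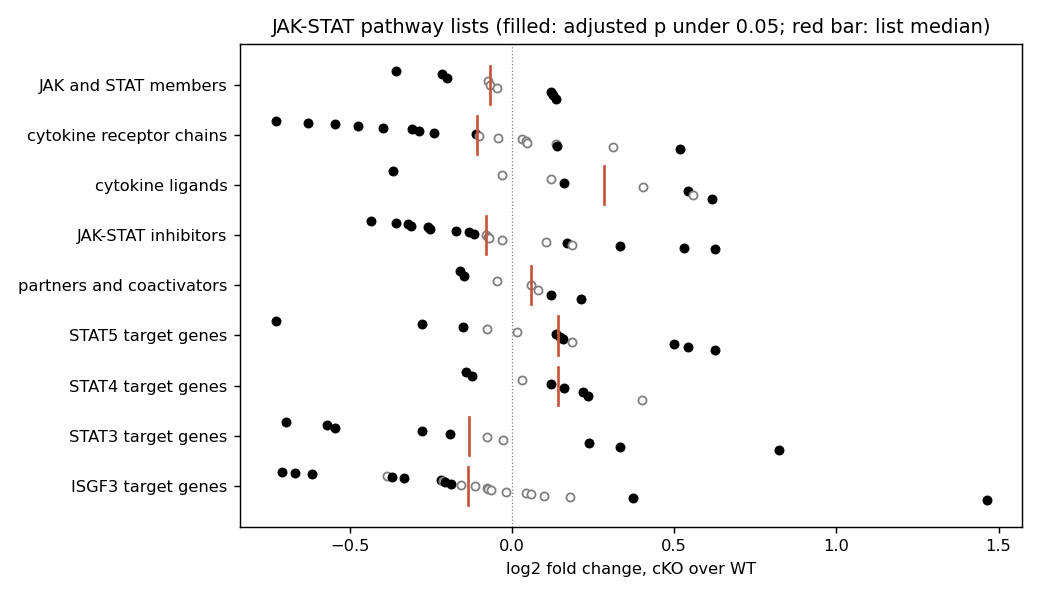
Log2 fold change of cKO over WT (horizontal axis) of each listed gene in the JAK-STAT lists (vertical axis), where filled points have a limma adjusted p under 0.05 and red bars give the median of the list. Every list holds filled points on both sides of 0, and the 9 members lie between −0.36 and 0.13.

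Known target genes of the STATs were read in the same way, and no list moved in a single direction. Of 12 STAT5 targets, 6 were higher and 3 lower, with a median log2 fold change of 0.14. Socs2 and Osm were among those that rose, and Il2ra and Pim1, a kinase induced by many cytokines (−0.28, limma adjusted p = 4.17e-08), among those that fell. Of 8 STAT4 targets, 4 were higher and 2 lower, with a median of 0.14. Tbx21, which encodes T-bet (0.23, limma adjusted p = 5.47e-07), and Gadd45g (0.22, limma adjusted p = 9.88e-05) rose, while Furin (−0.14, limma adjusted p = 0.00151) and Il18rap, a chain of the IL-18 receptor (−0.12, limma adjusted p = 0.00779), fell. Of 10 STAT3 targets, 3 were higher and 5 lower, with a median of −0.13. Bcl3 (−0.70, limma adjusted p = 3.09e-13) and Bcl6, a transcriptional repressor (−0.57, limma adjusted p = 1.43e-11), fell, but Fos rose (0.82, limma adjusted p = 8.01e-17), and so did Socs3. Of 22 ISGF3 targets, 2 were higher, 8 lower and 12 did not pass, with a median of −0.14. With equal totals 3 were higher and 5 lower, with a median of −0.086. Irf7, which carries the interferon response forward, had 32265, 32368 and 33113 normalized counts in WT and 20759, 20576 and 20097 in cKO, and its log2 fold change was −0.67 (limma adjusted p = 1.30e-15). Ifit1, an antiviral effector, fell as well (−0.71, limma adjusted p = 0.000601), and Oas3, an enzyme that senses double-stranded RNA, rose (0.37, limma adjusted p = 0.000496). Of these named targets, Il18rap lost its call with equal totals and without WT sample 3 or cKO sample 2 (limma adjusted p 0.0610 to 0.129), and the others kept theirs in all 18 alternatives.

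For each member that passed, the gene with the most similar pattern was sought by Pearson's r of log2 values over the 6 samples, among 11054 other genes with a mean of at least 100 normalized counts. The closest were Cd2bp2 for Jak1 (r = 0.999), Klf11 for Jak2 (0.999), BC024978 for Tyk2 (0.999), Apbb1ip for Stat2 (0.997), Ncf1 for Stat3 (0.998) and Naip5 for Stat5a (0.999). With 6 samples in 2 genotypes many genes can reach a high r, and they were counted at a lower limit only. An r above 0.95 was found for 725 genes with Tyk2, 506 with Jak2, 461 with Jak1, 411 with Stat3, 94 with Stat5a and 34 with Stat2.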

How the data were processed

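mRNA-seq of sorted splenic NK cells from 3 WT and 3 cKO samples was analysed, grouped by the genotype in the labels. Per the submitters' processing notes, the authors aligned paired reads to GRCm38 with HISAT2 2.0.5 and counted them per gene with featureCounts 1.5.0-p3. Each sample's deposited values are a signal, namely these counts divided by DESeq2 size factors (DESeq2 1.16.1). Columns of the authors' own comparison (mean signal, log2 fold change with its error, a score, p-values) were not used. All values came out as whole reads within 0.01 read in every sample, and same-genotype libraries differed by more than counting noise (chi-square per degree of freedom 5.50 to 8.01).

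Here limma 3.58.1 in R 4.3.3, with a variance trend, was fitted to log2(value + 1) of all 14490 genes. Fold changes are on that scale, and the added 1 shrinks those of low genes. A filter of at least 1 in at least 3 samples removed no gene. Tests were two-sided, p-values were adjusted over all genes by the Benjamini-Hochberg method, and the threshold was 0.05. Confidence intervals are at 95%. Single values and ratios were compared by the exact permutation test over 20 assignments. Alternatives were a pseudocount of 0.1 or 10, no filter or a filter on CPM, equal totals, TMM factors, limma-voom, edgeR 4.0.16 and DESeq2 1.42.0 on the recovered reads, the replicate number as a block, a correction for GC content and length, each sample left out, and a 1.5-fold limit.

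The members, the lists and the rule for naming genes were chosen with earlier results of these data known. All members are named. Of each list, the genes with the 2 largest rises and the 2 largest falls that passed with a mean of at least 100 normalized counts are named. Genes acting directly on or with the members are named too. Some cell type markers and Ptpn11 are named outside this rule. Of the gene names, 97.1% matched GENCODE M21 of GRCm38. Data of other assays in the study were not used here, and 1 gene of the lists is not reported here.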

Additional observations from a re-analysis of the deposited data

How the results depend on the processing

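Jak1, Jak2, Tyk2, Stat3 and Stat5a kept their direction and an adjusted p under 0.05 in all 18 alternatives, with log2 fold changes of 0.11 to 0.17, 0.12 to 0.18, −0.22 to −0.15, −0.40 to −0.31 and −0.24 to −0.17. Stat2 ranged from 0.085 to 0.17, with an adjusted p of 0.00728 to 0.249. Its call was lost in 7 alternatives, among them DESeq2 (adjusted p = 0.0528) and the correction for GC content and length (0.112, and 0.0879 together with the replicate block). Jak3 was called with that correction alone (adjusted p = 0.0168) and with the block added (0.0111). The cause of these changes was not tested.

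The count of called members was 6, or 5 with DESeq2, and 5 to 6 with a replicate left out. Over all genes 5307 were called, 5186 to 5543 under the other settings and 4417 to 4922 with a replicate left out. The partners and coactivators numbered 4 called genes, 2 with the correction for GC content and length, and 2 to 5 with a replicate left out. Scaling to equal totals moved the median of all genes up to 0.051 on the log2 scale and the share of calls that were higher from 48.5% to 63.4% (3487 higher, 2016 lower), brought Jak3 to −0.019 and Stat4 to −0.025, and turned Stat5b to 0.0044, Il15ra to 0.0054 and Stat6 to 0.022, none of these 5 genes being called. Members whose groups did not overlap then numbered 6 in place of 8. The genes higher and lower in the lists became 2 and 8 for receptor chains, 5 and 1 for ligands, 6 and 8 for inhibitors and 3 and 0 for partners. For the targets they became 7 and 3 for STAT5, 5 and 1 for STAT4, 3 and 5 for STAT3 and 3 and 5 for ISGF3. With a replicate left out, Il15ra ran from −0.069 to 0.0023. The log2 ratio of Stat4 to Stat5b ran from −0.057 to 0.00049 with a replicate left out. Irf9 lost its call with equal totals (adjusted p = 0.0515). For Mettl3 and the genes named by the rule other than members, there were 666 comparisons over the alternatives. Of these, 644 kept direction and side of the threshold, 11 lost a call, 8 gained one and 3 changed sign.

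The deviations of same-numbered WT and cKO samples from their group means had r = −0.024, 0.12 and 0.065 over 11055 genes. Samples with different numbers had r from −0.11 to 0.048. These low values do not settle whether the numbers pair the samples, and in the main fit they were not taken to do so. With the replicate number as a block, 5543 genes and the same count of 6 members were called. With 3 samples a group, the spread of a single gene is poorly known, and exact tests cannot go below 0.1.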
